A study of Homo sapiens with 6 samples.

Results

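The human genes named CEP followed by a number encode centrosomal proteins. Of the 19655 gene symbols in the deposited count table, 38 have such a name (CEP, a number and at most a letter or digit suffix), and these 38 are described here. All 38 were among the 14062 genes expressed well enough to be tested. The gene names alone decided which rows belong, but the set was chosen with earlier results of these data known.

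The cells are labelled HCT116, a long-established colorectal carcinoma line of human origin. Their RNA was sequenced in 3 libraries of control cells (NC) and 3 libraries of cells transfected with an antisense oligonucleotide against SNORA67 (ASO), a small nucleolar RNA, to knock it down. The labels give the genotype of the NC libraries only as control. Sources used here do not say how the control cells were treated, which oligonucleotides were used, or at what dose and time. SNORA67 itself was not analysed here, so the knockdown was not checked. Separate cultures are stated nowhere, and the p-values may therefore reflect technical spread between libraries only.

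The centrosome is the main organiser of microtubules in most animal cells and holds a pair of centrioles inside a cloud of pericentriolar material. Before division each centriole seeds a new one, and in resting cells the older centriole can dock at the membrane through its distal appendages and template a primary cilium. CEP proteins serve every one of these steps: CEP152, CEP192 and CEP63 recruit the kinase that starts duplication, CEP135 belongs to the core of the new centriole, CEP83, CEP89 and CEP164 form distal appendages, CEP290 and CEP162 build the transition zone at the base of the cilium, CEP250 and CEP68 tie the centrosomes together, and CEP55 acts at the midbody when daughter cells separate.

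Coding stretches of 4 genes are shown first because the direction of the called changes among the CEP genes ran with the base composition of their transcripts. Each is a run of 120 bases, 5′ to 3′, from the GENCODE release 29 transcript of the gene, taken in frame where the GC content is nearest that of its whole coding sequence. Capitals mark G and C. CEP290 (bases 106 to 225 of a coding sequence of 35.1% GC) and CEP162 (bases 127 to 246, 37.4% GC) had the largest falls. CEP170B (bases 7 to 126, 67.2% GC), which rose, has the highest coding GC of the 38 genes, and its paralog CEP170 (bases 58 to 177, 43.2% GC) was not called. Genes not called could go the other way. CEP131 (64.9% coding GC) and CEP135 (38.1%), not shown here, had log2 fold changes of -0.28 and 0.16.
CEP290: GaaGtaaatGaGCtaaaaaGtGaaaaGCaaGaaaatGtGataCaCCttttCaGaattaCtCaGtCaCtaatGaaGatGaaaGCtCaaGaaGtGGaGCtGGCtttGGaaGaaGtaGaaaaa
CEP162: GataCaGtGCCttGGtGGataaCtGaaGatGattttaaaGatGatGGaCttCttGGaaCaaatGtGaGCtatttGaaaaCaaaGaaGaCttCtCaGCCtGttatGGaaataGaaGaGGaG
CEP170: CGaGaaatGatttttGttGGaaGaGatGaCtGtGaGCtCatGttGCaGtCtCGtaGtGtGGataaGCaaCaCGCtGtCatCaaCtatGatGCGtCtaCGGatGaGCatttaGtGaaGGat
CEP170B: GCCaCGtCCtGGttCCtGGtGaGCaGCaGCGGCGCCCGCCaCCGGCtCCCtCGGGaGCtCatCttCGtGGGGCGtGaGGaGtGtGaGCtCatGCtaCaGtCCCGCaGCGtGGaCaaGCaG

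Levels are CPM, counts scaled to a common library total after TMM scaling, which evens out library size and composition. A gene is called higher or lower when the adjusted p of edgeR's quasi-likelihood test, corrected over all 14062 genes by Benjamini and Hochberg's method, is below 0.05. Totals of the deposited counts were 50728524 to 53715905 in NC and 49136502 to 54905215 in ASO, of which the CEP genes held 0.0989% to 0.106% in NC and 0.0933% to 0.101% in ASO. Summed over the 38 genes, the level was 993.9 to 1042 CPM in NC and 954.4 to 993.2 CPM in ASO. These ranges nearly met, and the shares of the totals overlapped, so the sums do not set the groups clearly apart. The label of the cells was set against markers. Of 15 colon epithelium markers, 3 reached 10 CPM in NC and 8 were under 1 CPM, with EPCAM at 4.37 ± 1.13 CPM (SD, n = 3) and ESRP1 at 0 in all libraries, while 8 of 12 mesenchymal markers reached 10 CPM, with VIM at 1201 ± 82.2 CPM. The 3 epithelial markers above 10 CPM were KRT8 (1360 ± 94.3 CPM), KRT18 (712 ± 55.8 CPM) and ELF3 (69.2 ± 7.29 CPM), and the mesenchymal markers COL1A2 and COL3A1 were under 1 CPM. Neither list was thus expressed as a whole, but a larger part of the mesenchymal than of the epithelial list reached 10 CPM. The identity of the cells was not tested, and they are called here by their label only. Some of these markers also differed between the groups, as did many genes: over all genes tested 19.1% were called lower and 26.8% higher. The mesenchymal markers summed to 2884 to 3206 CPM in NC and 3642 to 4276 CPM in ASO, with 4 of 11 tested lower, among them PDGFRB (2.47-fold), and 4 higher, among them COL1A1 (2.33-fold) and COL5A1 (2.09-fold). The epithelial markers summed to 1990 to 2293 CPM in NC and 1719 to 2262 CPM in ASO, with none of 12 tested lower and 3 higher. The 3 were LGALS4 from 0.0066 to 18.05 CPM, VIL1 from 0.0674 to 8.88 CPM and KRT19 from 0.0503 to 1.66 CPM. Being near 0 in NC, these 3 passed the filter on low counts only through their ASO counts and could only be called higher. VIL1 ranged from 1.12 to 14.62 CPM over the ASO libraries. The 6 leukocyte markers summed to 2.48 to 3.42 CPM in NC and 5.66 to 7.34 CPM in ASO, with PTPRC and CD3E at 0 in all libraries. The part of these markers in the change of the CEP genes was not tested.

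Of the 38 CEP genes, 10 fell, 5 rose and 23 were not called. The share that fell was 26.3%, against 19.1% of all genes tested, and the share that rose was 13.2%, against 26.8% of all genes tested. These shares of all genes depend on the NC level. The shares lower and higher were 7.88% and 32.9% at 1 to 5 CPM and 20.2% and 19.8% at 5 to 20 CPM. At 20 to 100 CPM they were 25.3% and 19.4%. In these ranges 3 of 6, 4 of 14 and 3 of 16 CEP genes fell, and 0, 0 and 4 rose. Comparisons of the other lists below share this limit. The median log2 fold change of the CEP genes was -0.36, against 0.01 over all genes, and 28 of the 38 had a negative value. With trends in GC content and transcript length removed, 26.3% of the CEP genes and 26.6% of all genes were called lower. Every ASO library lay below every NC library for 12 CEP genes and above for 6; these include CEP19 and CEP68 below and CEP164 above, which were not called. Over all genes the same held for 25.9% and 31.6%. At an unadjusted p under 0.05, edgeR put 13 of the 38 CEP genes lower and 6 higher, against 3347 and 4210 of all 14062 genes. The number that fell was 6 without NC library 2 and ran up to 14 without ASO library 2, and it was 11, with 6 that rose, when both libraries numbered 2 were left out. Over all genes tested, 12.7%, 22.4% and 21.4% fell in these settings, in that order.

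**Figure D1:**
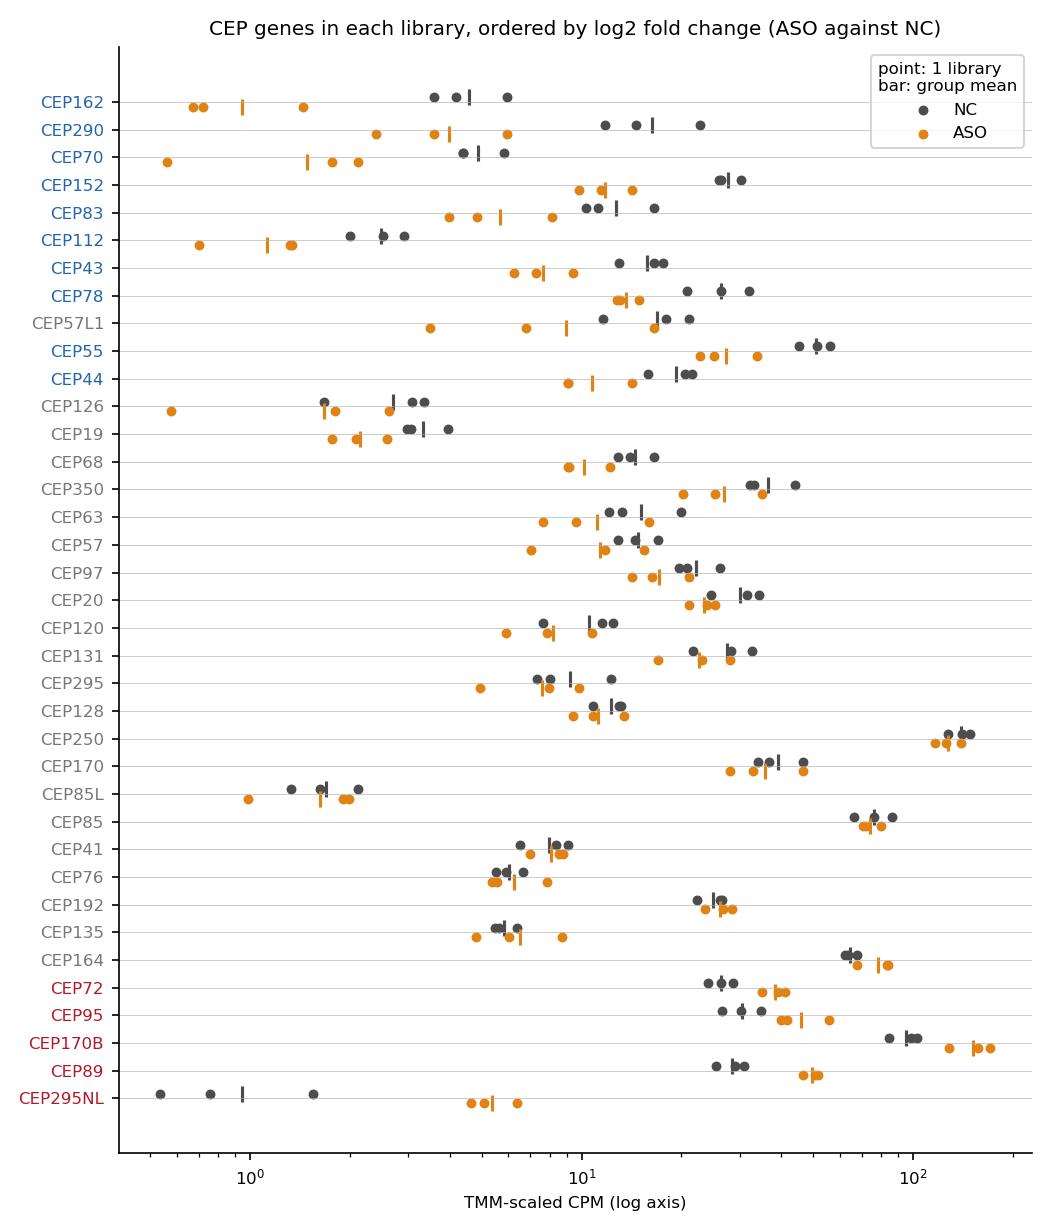
TMM-scaled CPM of 37 CEP genes in the 3 NC (grey) and 3 ASO (orange) libraries on a log axis, with a bar at each group mean. Genes are ordered by log2 fold change, and names are blue where called lower (10), red where called higher (5) and grey where not called (22). CEP162 and CEP290 stand at the top and CEP295NL at the bottom with the widest gaps between groups.

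The plot of CPM by library shows that the falls were spread over weakly and moderately expressed genes. Per kilobase of transcript, the NC level was highest in CEP85 (19.4 CPM per kb) and CEP55 (19.3 CPM per kb), followed by CEP170B at 13.98 and CEP20 at 13.2 CPM per kb. It was lowest in CEP85L, at 0.220 CPM per kb. Of these genes CEP55 fell and CEP170B rose, and the other 3 were not called.

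The cilium and transition zone group held the largest falls. Of its 7 genes, CEP162, CEP290 and CEP78 fell (42.9%, against 19.1% of all genes tested) and the other 4 were not called. The median log2 fold change of the 7 was -0.70. The group summed to 142.4 to 174.5 CPM in NC and 111.7 to 130.6 CPM in ASO, without overlap. Of single genes over all tested, 25.9% had every ASO library below every NC library.

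CEP162, which binds the tips of centriolar microtubules and helps to assemble the transition zone (chromosome 6, 84124241 to 84227643, minus strand of hg38), stood at 4.17, 5.95 and 3.59 CPM in NC libraries 1 to 3 and at 0.670, 1.44 and 0.720 CPM in ASO libraries 1 to 3. All 3 ASO libraries were below all NC libraries, and library 2 was the highest of each group. The fall was 4.84-fold (log2 fold change -2.27, SE 0.38; edgeR adjusted p = 0.00226). The ASO values rest on few reads, with 36 to 72 counts per library.

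CEP290, a transition zone scaffold mutated in Joubert syndrome and in inherited retinal blindness (chromosome 12, 88049016 to 88142099, minus strand), was at 14.6, 22.7 and 11.7 CPM in NC and 2.40, 5.96 and 3.58 CPM in ASO. The groups did not overlap, and library 2 was again the highest of both. CEP290 fell 4.11-fold (log2 fold change -2.04, SE 0.38; edgeR adjusted p = 0.00359). Its exons share 395 bases with those of C12orf29 on the other strand, which was at 11.5 ± 0.775 CPM in NC, against 12.5 ± 3.20 CPM in ASO (SD, n = 3; edgeR adjusted p = 0.659).

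CEP78, a centriole protein linked to cone-rod dystrophy with hearing loss (chromosome 9, 78236062 to 78279690, plus strand), was at 26.3, 32.0 and 20.8 CPM in NC and 12.8, 14.9 and 13.0 CPM in ASO. The ASO libraries lay close together and all below NC, a fall of 1.94-fold (edgeR adjusted p = 0.00393). CEP41, which supports glutamylation of ciliary tubulin, stood at 7.98 ± 1.33 and 8.10 ± 0.999 CPM. CEP20, a relative of CEP43 needed for cilium formation, was at 30.1 ± 4.97 CPM in NC, against 23.4 ± 2.07 CPM in ASO, with overlapping groups (edgeR adjusted p = 0.0896). CEP126 had 1 ASO library at 0.577 CPM and another at 2.62 CPM against 1.66 to 3.34 CPM in NC.

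Among the 11 genes of centriole assembly and length, CEP152 and CEP44 fell (18.2%, against 19.1% of all genes tested) and 9 were not called. The median log2 fold change was -0.37, and 8 of the 11 values were negative.

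CEP152, the scaffold that brings the duplication kinase PLK4 to the parent centriole (chromosome 15, 48737938 to 48811069, minus strand), was at 26.01, 30.3 and 26.4 CPM in NC and 11.4, 14.1 and 9.78 CPM in ASO. The gap between the groups was wider than the spread within either. It fell 2.34-fold (log2 fold change -1.23, SE 0.17), with the smallest p-value of the 38 genes (edgeR adjusted p = 0.000956). CEP63, its binding partner, was at 12.1, 19.9 and 13.2 CPM in NC and 7.65, 16.0 and 9.62 CPM in ASO. Library 2 was the highest of both groups, ASO library 2 was above NC libraries 1 and 3, and the gene was not called (edgeR adjusted p = 0.272). Without ASO library 2 the adjusted p of CEP63 was 0.037 and its log2 fold change -0.81.

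CEP192, the upstream recruiter of CEP152 and of pericentriolar material, did not pass the test and its groups overlapped, at 22.3, 26.2 and 26.4 CPM in NC and 23.6, 28.4 and 26.6 CPM in ASO (log2 fold change 0.07, SE 0.13; edgeR adjusted p = 0.702). CEP135, a protein of the centriole core, was at 5.64, 6.37 and 5.47 CPM in NC and 6.05, 8.72 and 4.80 CPM in ASO, so the ASO libraries ranged from below to above all NC libraries (edgeR adjusted p = 0.616). Of the genes that act together at the start of duplication, CEP152 fell and its partners CEP192 and CEP63 were not called. The differences between these genes were not tested.

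CEP44, needed for a new centriole to become a centrosome, went from 19.3 ± 3.01 CPM in NC to 10.8 ± 2.92 CPM in ASO (SD, n = 3; edgeR adjusted p = 0.0167). Its call was lost without NC library 1, NC library 2 or ASO library 3, with adjusted p of 0.064, 0.0655 and 0.0644. The other 6 genes of this group with their roles in centriole growth or number, CEP57, CEP76, CEP97, CEP120, CEP295 and CEP350, had log2 fold changes of -0.44 (CEP350) to 0.05 (CEP76). CEP97, which caps the centriole end together with CCP110, was at 22.2 ± 3.41 CPM in NC, against 17.2 ± 3.52 CPM in ASO.

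The 7 appendage genes moved in both directions: CEP83 and CEP43 fell, CEP89 rose, and 4 were not called. These shares were 28.6% lower and 14.3% higher, against 19.1% and 26.8% of all genes tested. Summed, the 7 appendage genes stood at 170 to 185.4 CPM in NC and 186.5 to 193.9 CPM in ASO.

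CEP83, the distal appendage protein that recruits the others (chromosome 12, 94306449 to 94459988, minus strand), was at 11.2, 16.5 and 10.3 CPM in NC and 3.97, 8.14 and 4.84 CPM in ASO. All ASO libraries were below NC, a fall of 2.24-fold (edgeR adjusted p = 0.017), which was not called without NC library 2 (0.0679) or without ASO library 3 (0.0648). CEP89, another distal appendage protein (chromosome 19, 32875925 to 32971991, minus strand), went the other way, from 28.95, 25.4 and 31.0 CPM in NC to 51.6, 46.4 and 50.7 CPM in ASO. Each ASO library exceeded each NC library, a rise of 1.74-fold (log2 fold change 0.80, SE 0.12; edgeR adjusted p = 0.00123). CEP164, the distal appendage protein closest to the membrane that recruits the kinase TTBK2, was at 62.1, 63.5 and 67.6 CPM in NC and 84.2, 67.6 and 83.5 CPM in ASO. ASO library 2 barely exceeded the highest NC library, and the gene was not called (log2 fold change 0.28, SE 0.11; edgeR adjusted p = 0.0731).

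CEP43, known also as FOP, a partner of CEP350 at the mother centriole (chromosome 6, 166999317 to 167052718, plus strand), was at 16.6, 17.6 and 13.0 CPM in NC and 6.24, 9.38 and 7.30 CPM in ASO. The groups did not overlap, and it fell 2.06-fold (edgeR adjusted p = 0.00498). Its exons share 1242 bases with those of Z94721.2 on the same strand, so reads of both cannot be told apart there. The subdistal appendage genes CEP128 (12.3 ± 1.27 CPM in NC, 11.2 ± 2.02 CPM in ASO) and CEP170 were not called. CEP19, an appendage protein that helps transport trains to enter the cilium, was at 3.32 ± 0.541 CPM in NC, against 2.14 ± 0.410 CPM in ASO without overlap but did not pass (edgeR adjusted p = 0.0793).

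Of the 5 genes of centrosome cohesion, pericentriolar material and satellites, CEP72 rose (20%, against 26.8% of all genes tested) and 4 were not called. CEP72, a satellite protein that takes part in recruiting the gamma-tubulin ring complex (chromosome 5, 612340 to 653553, plus strand), went from 26.3 ± 2.28 CPM in NC to 38.4 ± 3.05 CPM in ASO, with all ASO libraries above NC (1.46-fold; edgeR adjusted p = 0.00845). CEP250, the large linker protein also called C-NAP1, had the highest mean CPM of the 38 genes in NC, at 140.9, 127.6 and 148.7 CPM in NC and 139.0, 116.6 and 125.8 CPM in ASO. Its groups overlapped, and here library 2 was the lowest of both (log2 fold change -0.13, SE 0.10; edgeR adjusted p = 0.332). CEP68, which holds the linker in place, was at 14.5 ± 1.85 CPM in NC, against 10.1 ± 1.79 CPM in ASO, without overlap and close to the threshold (edgeR adjusted p = 0.0514). CEP131, a satellite protein, was at 27.5 ± 5.56 and 22.6 ± 5.52 CPM (edgeR adjusted p = 0.328).

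CEP55, which recruits the membrane-cutting ESCRT machinery to the midbody (chromosome 10, 93496612 to 93529092, plus strand), was at 51.2, 56.1 and 45.2 CPM in NC and 22.8, 33.8 and 25.1 CPM in ASO. All ASO libraries were below NC. The fall was 1.87-fold (log2 fold change -0.90, SE 0.17; edgeR adjusted p = 0.0039). CEP55 is known as a gene of dividing cells, and beside it 6 of 10 proliferation markers fell and none rose: TOP2A, CCNB2, BUB1, MKI67, CCNB1 and PCNA. The other 4, CDK1, CCNA2, PLK1 and MCM2, were not called, with log2 fold changes of -0.31, -0.12, 0.01 and 0.22. Transcript GC was 39.1% to 48.3% in the 6 that fell and 35.6%, 42.1%, 57.3% and 58.1% in these 4. Over all genes tested 19.1% fell and 26.8% rose, and over those at 100 CPM or more in NC 30.7% fell and 15.4% rose. These 10 markers summed to 2061 to 2114 CPM in NC and 1600 to 1668 CPM in ASO. Their part in the fall of CEP55 was not tested, and fewer dividing cells and less RNA per cell cannot be told apart in bulk RNA. With the GC and length trends described below removed, the fall of CEP55 was 1.34-fold (edgeR adjusted p = 0.00284). The part of GC content in that fall was not tested either.

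The promoter of CEP55 is shown because it holds letters known from promoters of genes of the division cycle. It is the 120 bases before the RefSeq start site in GRCh38.p14, chr10:93496492-93496611, plus strand. Capitals mark TTCAAA, which is the CHR element on the minus strand, and CCAAT. Another TTCAAA starts 3 bases before the start site, runs past the end of the stretch and is not marked.
CEP55: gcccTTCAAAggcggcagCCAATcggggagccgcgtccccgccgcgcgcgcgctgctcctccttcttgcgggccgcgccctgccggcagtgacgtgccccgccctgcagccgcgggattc

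Motifs were searched on both strands of RefSeq windows from 250 bases before to 50 after each start site, with 33 of the 38 CEP genes matched and 42 windows. The CHR letters (TTTGAA or TTCGAA) were in 16.4% of all 35116 windows and in 15 of the 42 CEP windows. CCAAT was in 34.6% of all windows and in 20 of 42. E2F letters (TTTCGCGC, TTTGGCGC, TTTCCCGC or TTTGGCGG) were in 3.35% of all windows and in 6 of 42. Counted by gene, CHR letters were in a window of 19.5% of all genes and of 14 of the 33 CEP genes. Of the genes that fell, 5 of 9 with a window held them (CEP290, CEP152, CEP112, CEP55 and CEP44), as did 2 of 3 that rose (CEP72 and CEP89) and 7 of 21 not called. A match is a description of the letters in the window and not a bound site.

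Of the 7 genes placed in none of these roles, CEP70 and CEP112 fell and CEP295NL, CEP170B and CEP95 rose. These shares were 28.6% lower and 42.9% higher, against 19.1% and 26.8% of all genes tested. CEP70, a binding partner of gamma-tubulin (chromosome 3, 138494344 to 138594538, minus strand), was at 4.40, 5.84 and 4.38 CPM in NC and 1.77, 2.12 and 0.560 CPM in ASO. The ASO libraries were all lower but spread widely, with 28 counts in ASO library 3 (3.28-fold; edgeR adjusted p = 0.0158). Without NC library 2 its adjusted p was 0.0552. CEP112, spread over the longest span of the 38 genes (chromosome 17, 65635537 to 66192133, minus strand), was at 2.00, 2.52 and 2.91 CPM in NC and 1.34, 1.32 and 0.700 CPM in ASO. Its fall of 2.21-fold had the highest adjusted p of the 10 (edgeR, 0.0306), and it was not called without NC library 2 (0.0759), NC library 3 (0.0897) or ASO library 3 (0.0791).

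CEP295NL, named for its likeness to CEP295 (chromosome 17, 78870910 to 78903215, minus strand), was barely detected in NC at 0.755, 1.54 and 0.535 CPM and stood at 6.37, 4.64 and 5.08 CPM in ASO. Every ASO library was above 4 CPM and every NC library under 2 CPM, a rise of 5.66-fold (log2 fold change 2.50, SE 0.40; edgeR adjusted p = 0.0019). Over all genes tested with under 1 CPM in NC, 59.7% were called higher and 0.578% lower. The filter on low counts kept genes nearly absent from NC only where their ASO counts were high enough, which raises the share called higher. CEP295NL had 40, 84 and 27 counts in NC libraries 1 to 3, so that share is not a like comparison for it. The gene lies within the span of TIMP2 on the same strand without sharing exons. TIMP2 fell from 279 ± 7.15 CPM to 199 ± 25.0 CPM (SD, n = 3; edgeR adjusted p = 0.0068).

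CEP95 (chromosome 17, 64506975 to 64542461, plus strand) was at 30.1, 34.8 and 26.6 CPM in NC and 39.9, 55.8 and 41.5 CPM in ASO. The groups did not overlap (1.499-fold higher; edgeR adjusted p = 0.0229), but the call was lost without NC library 1 (0.0786) or NC library 3 (0.0934). Its exons share 506 bases with those of DDX5 on the other strand, and the strand setting of the counting is not stated in these sources. DDX5 was far more abundant and fell from 460 ± 11.3 to 359 ± 56.1 CPM (edgeR adjusted p = 0.0325). In all, 2 CEP genes share exonic bases with another gene on the same strand and 11 with a gene on the opposite strand.

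The 3 pairs of paralogs allowed a comparison of related genes. CEP170B (chromosome 14, 104865268 to 104896747, plus strand) rose 1.60-fold, from 98.6, 84.4 and 102.7 CPM in NC to 171.1, 128.0 and 156.9 CPM in ASO, with no overlap (edgeR adjusted p = 0.00453). CEP170, which binds microtubules at subdistal appendages, was at 34.1, 46.5 and 36.6 CPM in NC and 28.0, 46.4 and 32.9 CPM in ASO and was not called (edgeR adjusted p = 0.643). The 2 paralogs were opposite in which library stood apart: library 2 was the highest of both groups for CEP170 and the lowest of both for CEP170B. The ratio of CEP170B to CEP170 CPM was 2.89, 1.82 and 2.80 in NC and 6.11, 2.76 and 4.77 in ASO, with 1 ASO library inside the NC range (two-sided exact permutation p = 0.3, adjusted over 3 pairs 0.45; the smallest p that 3 against 3 libraries allow is 0.1).

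CEP57L1, the paralog of the centriole protein CEP57, scattered widely in ASO, at 21.0, 17.9 and 11.6 CPM in NC and 3.48, 6.80 and 16.5 CPM in ASO. ASO library 3 lay inside the NC range and the other ASO libraries far below it. The gene was not called (edgeR adjusted p = 0.181) but passed without ASO library 3 (0.0165). CEP57 was at 14.5, 17.05 and 12.9 CPM in NC and 7.04, 15.4 and 11.7 CPM in ASO, with overlap (edgeR adjusted p = 0.294), and the ratio of CEP57L1 to CEP57 gave an exact permutation p of 0.3. CEP85, a centrosome protein that restrains separation of the centrosomes, was at 76.2, 66.5 and 86.5 CPM in NC and 79.7, 72.3 and 70.7 CPM in ASO. CEP85L was at 1.62, 2.11 and 1.33 CPM in NC and 0.987, 1.90 and 1.98 CPM in ASO. Neither was called, both pairs of groups overlapped, and the ratio of CEP85L to CEP85 gave an exact permutation p of 0.9.

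The change of the CEP genes ran with the GC content of their transcripts. All 10 that fell had 35.4% to 44.9% GC, and all 5 that rose had 45.1% to 66.2% GC. Of the 26 CEP genes under 45% GC, 10 fell and none rose, while over all genes under 45% GC 30.0% fell and 11.6% rose. Of the 12 at 45% GC or more, none fell and 5 rose, while over all such genes 14.2% fell and 33.8% rose. Called or not, 22 of the 26 and 6 of the 12 CEP genes had a negative log2 fold change. The split at 45% was drawn after the values were seen. The Spearman correlation of log2 fold change and transcript GC was 0.54 over the 38 CEP genes and 0.37 over the 11783 genes at 1 CPM or more in NC. With the GC of the coding sequence it was 0.65 and 0.40. These are correlations across genes measured in the same libraries, given as a description.

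**Figure D2:**
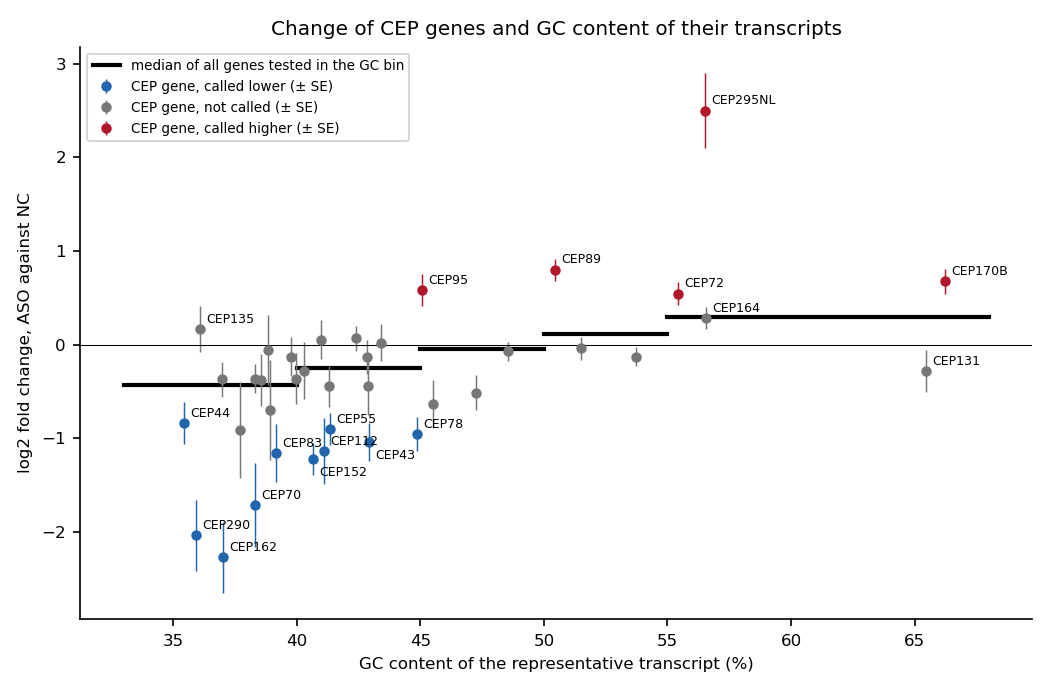
Log2 fold change (ASO against NC, ± SE) of each CEP gene against the GC content of its representative transcript in percent, blue where called lower, red where called higher, grey where not called. Black segments are the median of all genes tested in 5 GC bins, which runs from -0.43 under 40% GC to 0.29 at 55% or more. Blue points lie only left of 45% and red points only right of it, while CEP131 at 65.4% GC has a negative value that was not called.

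Length and level were related less closely to the change. The Spearman correlation of log2 fold change with the genomic span was -0.23 over the CEP genes and -0.17 over genes at 1 CPM or more. With transcript length it was 0.05 and 0.02. The 10 genes that fell had spans of 32.5 to 557 kb (median 83.1) and the 5 that rose 31.5 to 96.1 kb (median 35.5). Of the 10 CEP genes spanning 100 kb or more, 4 fell (CEP162, CEP70, CEP83 and CEP112) and none rose. Over all genes of 100 to 200 kb 24.0% fell and 20.9% rose, and over those of 200 kb or more 28.5% fell and 18.7% rose. With the NC level in CPM the correlation was 0.24 over the CEP genes and -0.10 over genes at 1 CPM or more. The genes that fell had NC means of 2.48 to 50.8 CPM and those that rose 0.944 to 95.2 CPM.

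GC content also set the libraries of a group apart from each other. Among the 26 CEP genes under 45% GC, library 2 was the highest NC library for 20 and the highest ASO library for 21. Among the 12 at 45% or more, it was the lowest NC library for 7 and the lowest ASO library for 7. The same held over all genes at 1 CPM or more: under 45% GC, library 2 was the highest NC library for 74.5% and the highest ASO library for 79.0%. For the CEP genes under 45% GC, the median log2 distance from the NC mean was -0.04, 0.23 and -0.23 in NC libraries 1 to 3 and -0.90, -0.16 and -0.41 in ASO libraries 1 to 3. All 3 ASO medians were below the NC medians of libraries 1 and 2, but ASO library 2 was above NC library 3. Libraries of 1 group thus differed by GC content, as the groups did.

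**Figure D3:**
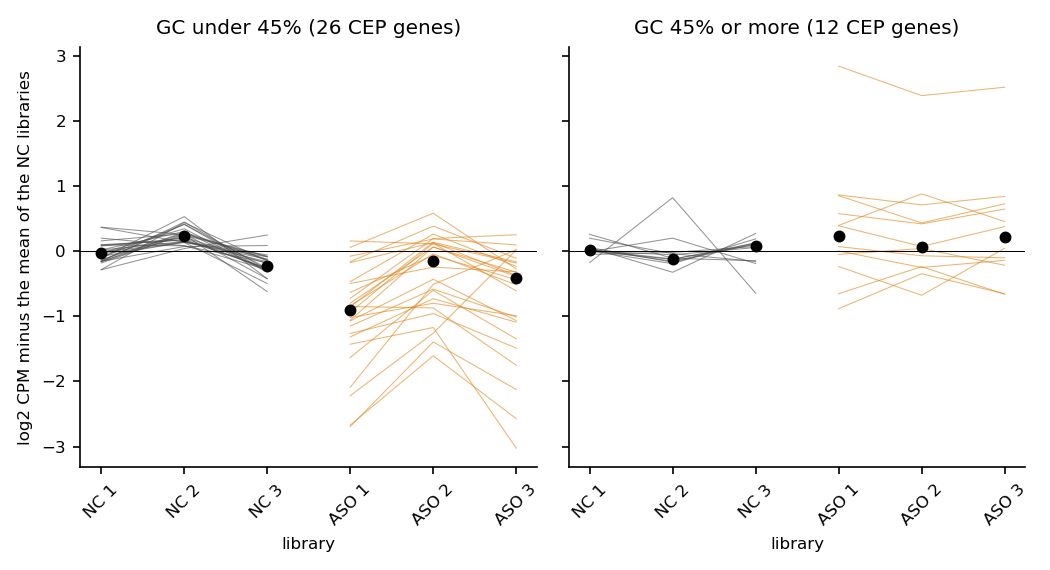
Log2 CPM of each CEP gene minus the mean of the 3 NC libraries, by library, for the 26 genes under 45% GC (left) and the 12 at 45% or more (right). Thin lines join the libraries of 1 group for 1 gene and black points are medians over genes. In the left panel library 2 has the highest median of each group, 0.23 in NC and -0.16 in ASO.

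To show what remained beside this trend, the trends of each library with GC content and transcript length were removed gene by gene with offsets. The offsets take out any trend with GC, whatever its source. Of the 10 genes that fell, 7 were still called lower: CEP162, CEP290, CEP43, CEP152, CEP78, CEP83 and CEP55. Their falls were smaller, such as 2.68-fold for CEP290 (edgeR adjusted p = 0.00122), 1.72-fold for CEP152 (0.000798) and 1.34-fold for CEP55 (0.00284). CEP70 (adjusted p = 0.0598), CEP112 (0.138) and CEP44 (0.364) were no longer called. Of the 5 that rose, 4 were still called higher, CEP295NL, CEP95, CEP89 and CEP72, while CEP170B stood at a log2 fold change of 0.01 (0.879).

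The same offsets called 8 further CEP genes. CEP131, CEP250 and CEP68 were called lower, with log2 fold changes of -0.86, -0.51 and -0.47. CEP135, CEP76, CEP192, CEP170 and CEP20 were called higher, at 0.82, 0.54, 0.38, 0.33 and 0.32. CEP170 and CEP20 changed sign. The count was then 10 lower (26.3%) and 9 higher (23.7%), against 26.6% and 29.3% of all genes tested with the same offsets, so the share lower was no longer above that of all genes, and the median log2 fold change of the 38 genes was -0.12 in place of -0.36. CEP152 and CEP192 lay on opposite sides with the offsets, lower and higher.

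**Figure D4:**
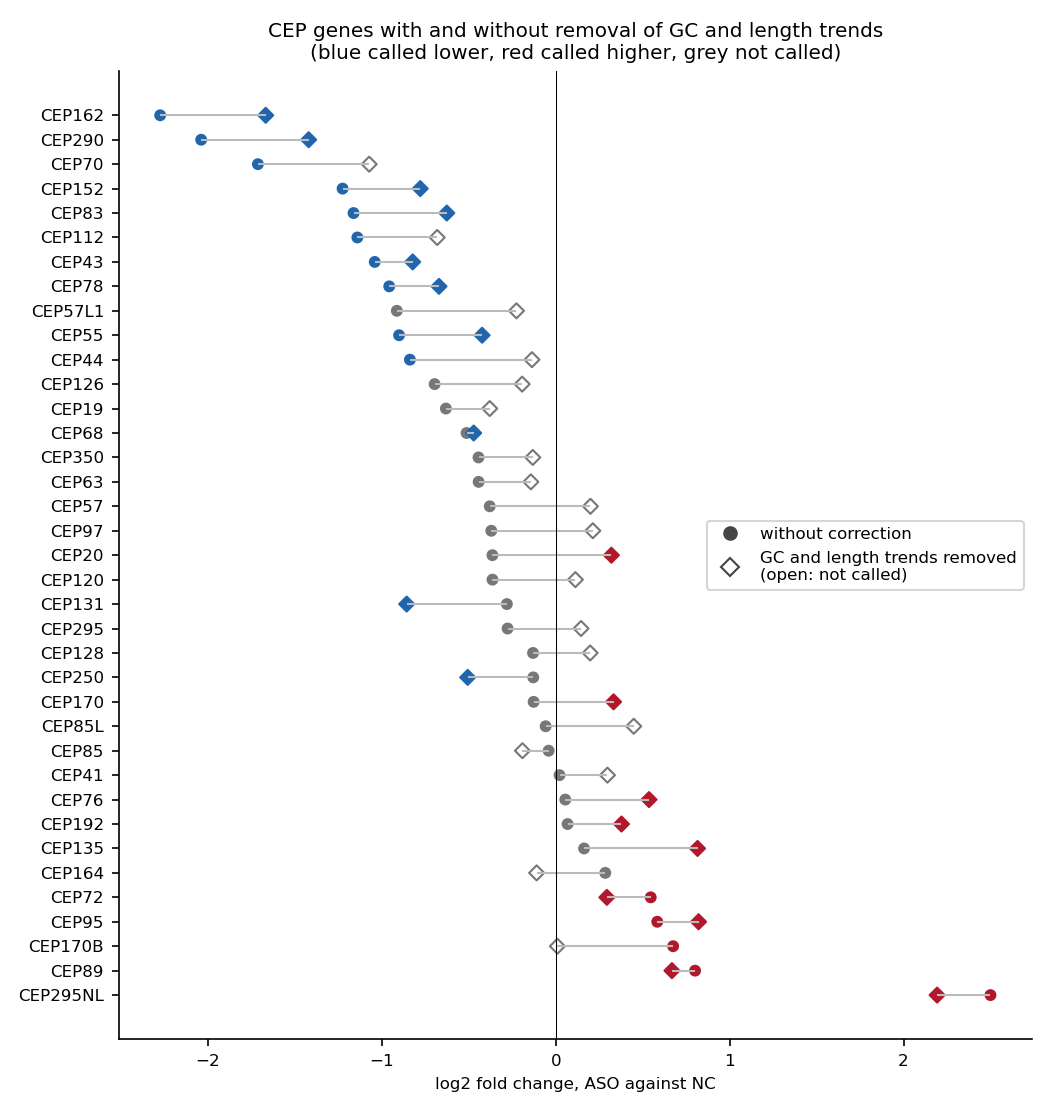
Log2 fold change of 37 CEP genes in the comparison without correction (circles) and with GC and length trends removed (diamonds, open where not called), joined by a line, in blue where called lower and red where called higher. Genes under 45% GC shift to the right and those at 50% or more to the left; CEP162, CEP290 and CEP152 stay blue and CEP89, CEP95 and CEP295NL stay red.

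The other genes of the centrosome were counted from lists by function. Of 85 tested outside the CEP names, 29 fell (34.1%) and 7 rose (8.24%), against 19.1% and 26.8% of all genes tested, with a median log2 fold change of -0.26. With GC and length trends removed, 35 were called lower (41.2%) and 12 higher (14.1%), against 26.6% and 29.3% of all genes, and 18 of the 29 falls were among the 35. Without ASO library 3 the number that fell was 17, without NC library 1 it was 19, and without NC library 2 it was 18. The share of all genes that fell was then 12.4%, 12.1% and 12.7%. In centriole assembly 8 of 26 fell and 3 rose. The falls included CETN3 and CETN2, the centrins of the centriole lumen (3.29-fold and 2.41-fold; edgeR adjusted p = 0.0153 and 0.00127), CENPJ, which sets centriole length (2.00-fold; 0.00167), and POC1B (2.22-fold; 0.0204). In the appendage list KIF2A, NIN and CNTRL fell (2.53-fold, 1.97-fold and 1.96-fold), while C2CD3, needed for distal appendages, rose 1.98-fold (edgeR adjusted p = 0.000296).

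Centriolar satellites had 6 falls and no rise among 13 genes, where all genes tested had 19.1% falls and 26.8% rises. PCM1, the scaffold of the satellites, fell from 36.8 ± 4.96 CPM to 14.99 ± 4.03 CPM (2.45-fold; edgeR adjusted p = 0.00184), and SSX2IP, CCDC61 and PIBF1 fell 2.62-fold, 2.56-fold and 2.23-fold. CCDC61 did so with a transcript of 66.4% GC. In pericentriolar material and gamma-tubulin complexes 6 of 21 fell and 2 rose. ASPM, a spindle pole protein, fell 3.18-fold, and AKAP9, an anchor of gamma-tubulin at centrosome and Golgi, fell 3.07-fold (edgeR adjusted p = 0.00118 and 0.000857), and KIZ, which stabilises the pericentriolar material, fell 1.81-fold (0.0357), while TUBG2, the second gamma-tubulin, rose 2.16-fold. The centrosome linker had 3 falls among 5 genes (CNTLN, NEK2 and LRRC45). In augmin, the complex that branches microtubules, HAUS1, HAUS3 and HAUS4 fell and HAUS2 rose.

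Of 55 primary cilium genes tested, 22 fell (40%) and 3 rose (5.45%), against 19.1% and 26.8% of all genes tested, with a median log2 fold change of -0.31. IFT80 and WDR19, subunits of the intraflagellar transport trains, fell 2.43-fold and 2.27-fold, and BBIP1, a subunit of the BBSome, 2.34-fold. INPP5E, a phosphatase of the ciliary membrane, rose 2.32-fold (edgeR adjusted p = 0.000867). The number that fell was 10 without NC library 1 or without ASO library 3, 11 without NC library 2 and 13 without ASO library 1. Of all genes tested, 12.1%, 12.4%, 12.7% and 15% fell in these settings, in that order. The number that rose was 1 without ASO library 1 and 5 without ASO library 2. With GC and length trends removed 14 were called lower (25.5%) and 7 higher (12.7%), against 26.6% and 29.3% of all genes, and 10 of the 22 falls were among the 14. Whether cells had cilia was not measured.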

How the data were processed

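RNA of 6 libraries, 3 NC and 3 ASO, grouped by their labels, was analysed. FastQC, STAR, StringTie and DESeq2 and the build hg38 appear in the submitters' processing notes without versions or roles. The authors deposited estimated counts per gene, unscaled and in whole numbers. In each library 4 was far more frequent than 3 (226 to 296 genes against 74 to 121), so 1 fragment may be worth several counts; division of the counts by 4 was tried. The strand setting and the handling of shared reads are not stated there.

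ASO was compared with NC in edgeR 4.0.16 under R 4.3.3: filterByExpr (minimum count 10, total 15), TMM factors of 0.978 to 1.02, robust quasi-likelihood test without replicate block, Benjamini-Hochberg adjustment over 14062 genes. The standard error is the log2 fold change divided by the square root of F. Alternatives were other scalings and filters, DESeq2 1.42.0, limma-voom (limma 3.58.1), a replicate block, GC and length offsets (mgcv 1.9.3, smooth terms fitted per library over genes at 1 CPM or more), and leaving out each library. The first form of the offsets also removed each library's mean deviation. It was replaced by the smooth terms alone after its result was seen, and is kept as an added alternative, as is leaving out both libraries numbered 2.

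GENCODE 29 gave GC and lengths of 1 protein-coding transcript per gene (19520 of 19655 symbols, all 38 CEP genes). Spans are the deposited coordinates. Proteins were not analysed here. On simulated data for this comparison with 13886 genes, edgeR recovered 63 of 97 changes of log2 size 1 and 84 of 98 of size 2, with 16 of 13691 unchanged genes called. With a simulated GC trend (13894 genes), the correlation of fold change and GC in unchanged genes went from 0.546 to 0.00762 with the offsets. The offsets are built to remove such a trend, which was linear and equal in all ASO libraries. The result therefore does not show how sound the calls with offsets are in the real libraries, which differed by GC within groups.

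Genes given with values in every library are the 8 CEP genes called lower with the lowest and the 4 called higher with the highest fold change among those at 1 CPM or more, CEP55, CEP63, CEP135, CEP152, CEP164, CEP192, CEP250, CEP290 and 3 paralog pairs. From the other lists up to 4 called genes with the largest change are named. C12orf29, TIMP2 and DDX5 were added as overlapping neighbours after values were seen, as were CCDC61's GC content and the single proliferation, epithelial and mesenchymal markers named. The members and lists were chosen with earlier results of these data known. The values of 1 CEP gene are not reported here, although it is included in the counts over the 38.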

Additional observations from a re-analysis of the deposited data

How the results depend on the processing

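Over 19 alternatives, 6 of the 10 falls (CEP152, CEP162, CEP290, CEP43, CEP55 and CEP78) and 2 of the 5 rises (CEP89 and CEP295NL) kept their direction and call. CEP72 lost its call only where offsets also removed the library mean. Other scalings, filters, DESeq2, limma-voom and division by 4 gave 10 or 11 CEP genes lower and 5 higher. Leaving out 1 library gave 6 to 14 lower and 4 to 6 higher. It gave 17 to 35 lower and 5 to 9 higher for the other centrosome genes, 10 to 21 and 1 to 5 for the cilium genes, and 1755 to 3199 and 3128 to 3927 for all genes. Same-numbered libraries correlated at 0.0764, 0.295 and 0.0439, and libraries of unlike number at -0.221 to 0.159. Each value of a library 2 with an unlike number was negative. Same-number values were not all the higher ones and no label states a pairing, so the numbers were not taken to pair the libraries. With a replicate block, 14 CEP genes were lower and 6 higher, and 11 other centrosome genes were higher. With GC and length offsets, 9 CEP, 12 other centrosome and 7 cilium genes were higher and 14 cilium genes lower. CEP170 then stood at 0.33 and CEP20 at 0.32 in log2 fold change. With block and offsets together, 8 CEP, 11 other centrosome and 6 cilium genes were higher and 13 cilium genes lower, with CEP170 at 0.33. Chosen after seeing the data were 2 alternatives. Offsets that also removed the library mean called 18 CEP genes, 47 other centrosome genes and 5720 of all genes lower, with the median of all genes moved to -0.23, CEP164 at -0.36 and CEP170B at -0.24. Without both libraries numbered 2, 12 other centrosome and 5 cilium genes were higher. The cause of these differences was not tested. The lowest counts, 28 for CEP70 and 36 for CEP162 in an ASO library, limit the precision of those folds.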
